A study of Mus musculus with 8 samples.

Results

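The 10 genes described here encode vimentin and proteins that bind actin filaments. They were listed by symbol: Vim, Tagln, Tagln2, Tpm1, Tpm2, Tpm4, Cnn2, Flna, Actn1 and Crip1. All probe sets that the platform annotation gives 1 of these symbols were taken, 22 of 34945 probe sets with a single symbol, and all 10 genes of the 18193 measured were found. Vim, Tpm1, Tpm2, Tagln2 and Actn1 have several probe sets and the other 5 genes have 1. Mouse embryonic stem cells (ESCs), which are pluripotent cells in culture, were kept on gelatine without feeders or serum in N2B27 medium with LIF, 1 μM PD0325901 (a MEK inhibitor) and 3 μM CHIR99021 (a GSK3 inhibitor). Control cells received DMSO alone for 60 h (3 arrays). Inhibitor-treated cells received 64 μM 10058-F4, a small molecule that disturbs the pairing of MYC with MAX, for 60 h (2 arrays). Released cells had the same 60 h with 10058-F4 and then 48 h in 2i medium without it (3 arrays), so they were harvested later than the other groups, and time in culture and withdrawal cannot be told apart. The labels name neither the cell line nor a clone and do not say whether replicates were separate cultures, so the p-values reflect array-to-array spread only, part of which could be technical.

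Vimentin forms intermediate filaments, the strain-bearing fibres of mesenchymal cells, and is also made by cultured stem cells. Tropomyosins are coiled coils that lie along actin filaments and govern which myosins and severing proteins reach them. Transgelins and calponins bind the sides of actin filaments, filamins and α-actinins crosslink them, and Crip1 is a small LIM-domain protein found with actin bundles. Many such genes are known targets of serum response factor (SRF) with its MRTF coactivators and of YAP with TEAD factors.

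After 60 h with the inhibitor the group divided. Crip1 was 6.81-fold lower and Vim 2.06-fold lower than with DMSO, while the tropomyosin genes Tpm1 (2.08-fold), Tpm2 (1.58-fold) and Tpm4 (1.45-fold), Flna (1.53-fold) and Tagln2 (1.49-fold) were higher. Actn1 passed the test narrowly at 1.13-fold, and Tagln and Cnn2 did not pass. In released cells most of these levels lay near those of DMSO cells again, but Cnn2 was 1.63-fold lower than with DMSO. Smaller differences remained, and between released and DMSO arrays 1 of the 10 genes was called higher and 4 lower, Cnn2 among them. Of all genes 8.66% were called there, and only the call of Cnn2 held in every setting. Of the 10 genes, 6 rose and 2 fell with the inhibitor (limma, adjusted p under 0.05 over all genes), where 41.5% of all genes were called, 19.2% upward and 22.3% downward. The median log2 change of the 10 genes was 0.36, beside -0.06 for all genes.

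**Figure D1:**
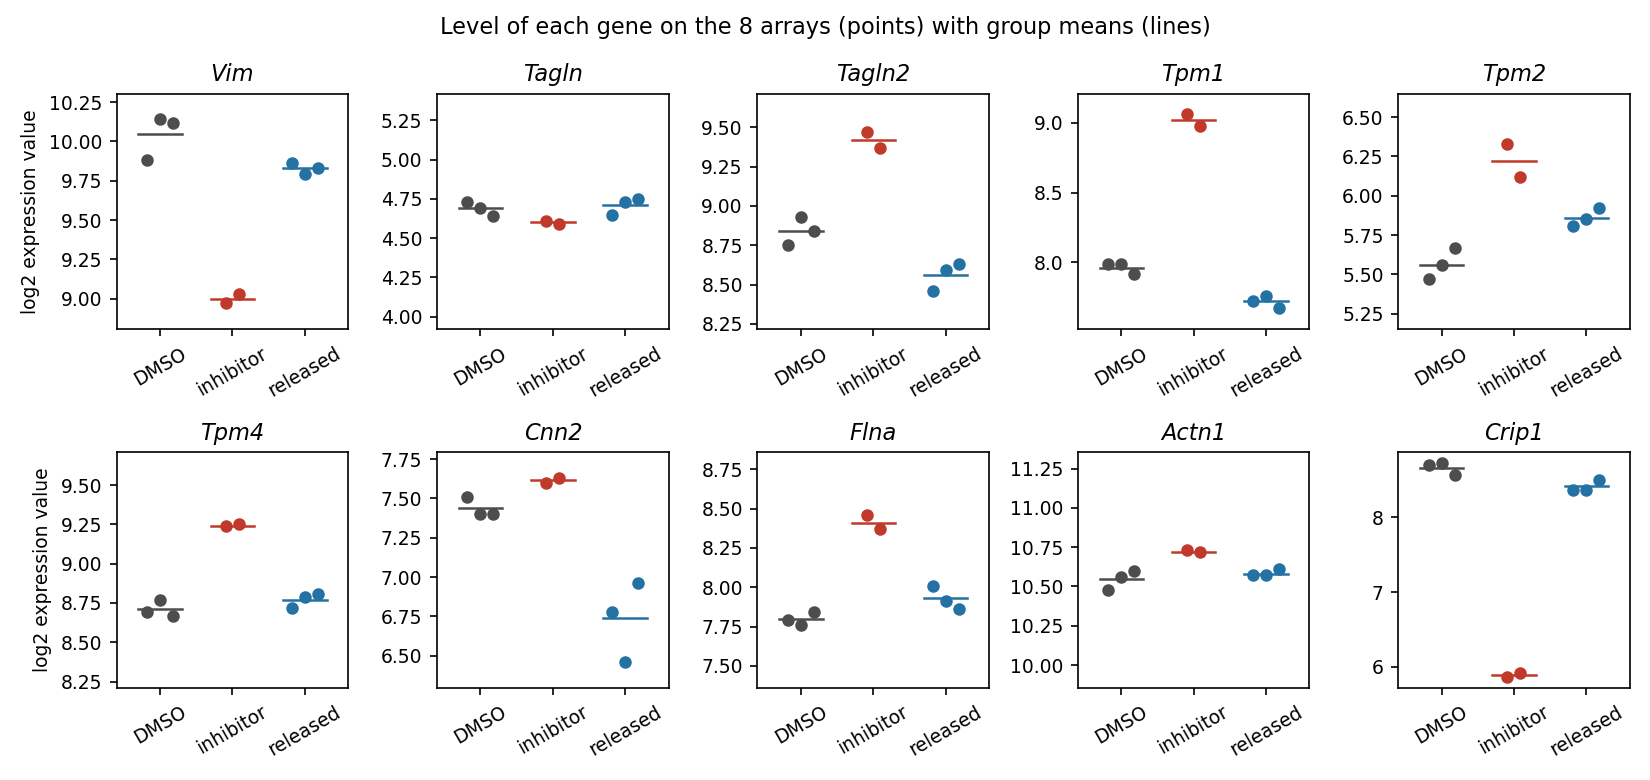
Log2 expression value (vertical axes, each with its own range) of the 10 genes on the 8 arrays, for the probe set kept per gene. Points are arrays and lines are group means of 3 DMSO, 2 inhibitor-treated and 3 released arrays. Vim and Crip1 are lowest on the inhibitor-treated arrays, Tpm1, Tpm2, Tpm4, Tagln2 and Flna highest on them, and Cnn2 is lowest on the released arrays.

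Promoter sequence was taken from RefSeq (GRCm38.p6) for the 9 of 10 genes found in that table; Tagln is named only. The stretches shown are the 250 bases before the listed start of a transcript. They are given for the genes with the largest falls (Crip1, Vim), the largest rise (Tpm1) and other genes with a motif match (Tagln2, Flna). Also shown is Cnn2, the gene of the 10 that was furthest below DMSO after release. Capitals mark matches, on either strand, to GGAATG, the core of TEAD sites, or to the CArG box bound by SRF.
Vim (chr2:13574061-13574310, + strand): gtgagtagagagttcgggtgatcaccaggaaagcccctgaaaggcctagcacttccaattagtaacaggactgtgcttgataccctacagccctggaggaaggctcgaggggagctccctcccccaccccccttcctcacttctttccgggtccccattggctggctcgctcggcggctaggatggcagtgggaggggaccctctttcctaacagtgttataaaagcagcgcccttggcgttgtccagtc
Crip1 (chr12:113151762-113152011, + strand): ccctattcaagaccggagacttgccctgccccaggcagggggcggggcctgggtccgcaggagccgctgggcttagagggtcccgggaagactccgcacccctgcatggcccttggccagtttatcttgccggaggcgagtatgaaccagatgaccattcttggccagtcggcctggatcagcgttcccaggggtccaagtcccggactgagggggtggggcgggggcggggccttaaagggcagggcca
Tpm1 (chr9:67049214-67049463, - strand): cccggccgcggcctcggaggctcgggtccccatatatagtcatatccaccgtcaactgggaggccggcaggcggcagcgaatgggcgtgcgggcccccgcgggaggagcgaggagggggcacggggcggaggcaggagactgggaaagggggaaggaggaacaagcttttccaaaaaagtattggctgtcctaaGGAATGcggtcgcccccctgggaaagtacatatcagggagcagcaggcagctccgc
Tagln2 (chr1:172499996-172500245, + strand): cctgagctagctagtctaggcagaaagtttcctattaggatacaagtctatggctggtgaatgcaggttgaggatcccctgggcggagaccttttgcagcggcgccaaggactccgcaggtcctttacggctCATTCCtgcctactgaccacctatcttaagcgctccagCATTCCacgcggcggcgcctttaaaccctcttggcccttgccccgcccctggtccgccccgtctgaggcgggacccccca
Flna (chrX:74246535-74246784, - strand): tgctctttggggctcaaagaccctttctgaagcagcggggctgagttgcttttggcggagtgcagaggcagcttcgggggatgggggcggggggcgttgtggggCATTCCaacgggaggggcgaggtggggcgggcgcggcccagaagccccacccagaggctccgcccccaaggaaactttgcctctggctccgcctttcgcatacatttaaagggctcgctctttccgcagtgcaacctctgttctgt
Cnn2 (chr10:79988350-79988599, + strand): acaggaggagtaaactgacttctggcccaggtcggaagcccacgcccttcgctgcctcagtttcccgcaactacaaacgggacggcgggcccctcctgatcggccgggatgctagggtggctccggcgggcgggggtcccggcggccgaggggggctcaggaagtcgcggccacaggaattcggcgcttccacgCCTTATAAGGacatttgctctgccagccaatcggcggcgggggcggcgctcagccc
All motifs were searched on both strands. The E-box of MYC with MAX, CACGTG, was found in 0 of these 9 windows, and in 6.02% of all 32851 windows of the same length. The TEAD core was found in 3 windows, those of Tpm1, Tagln2 and Flna, against 12.6% of all windows. The CArG box was found in 1, that of Cnn2, from 56 to 47 bases before the start, against 1.47% of all windows. The AP-1 motif TGANTCA was found in 0, against 6.75%. No match of 1 motif overlapped that of another in these windows. The motifs were chosen with the data and the sequences in view, and a match is a description of letters only.

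Vimentin was measured by 3 probe sets. The kept one, 1438118_x_at, read 9.88, 10.14 and 10.12 with DMSO, 8.97 and 9.03 with the inhibitor, and 9.86, 9.79 and 9.83 after release (log2 values). Both inhibitor-treated arrays lay below every other array, and the released arrays lay just below the lowest DMSO array. The fall with the inhibitor was -1.04 ± 0.085 (log2 change ± moderated standard error; limma adjusted p = 7.35e-06), to 48.6% of the DMSO level. On withdrawal Vim rose by 0.82 ± 0.085 (limma adjusted p = 3.39e-05). Released arrays differed from DMSO by -0.22 ± 0.076, which did not pass (limma adjusted p = 0.118; 95% interval -0.39 to -0.05). This last comparison depended on the probe sets. In the fit over every probe set 1450641_at was lower after release than with DMSO (-0.36 ± 0.060, limma adjusted p = 0.00709), and so was 1456292_a_at (-0.31 ± 0.072, 0.033). With the mean of the 3 probe sets Vim passed (0.0146), as it did without DMSO replicate 1 (0.0268) and with a variance trend (0.00952); over 15 alternatives its adjusted p ran from 0.00952 to 0.284. For the inhibitor against DMSO the 3 probe sets gave -1.04, -1.09 and -1.04, and their changes did not differ past the threshold (limma adjusted p = 0.759 and 0.995 against the kept one).

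Crip1 had the largest change of the 10 genes. Its probe set 1416326_at read 8.69, 8.72 and 8.56 with DMSO, 5.87 and 5.92 with the inhibitor, and 8.36, 8.36 and 8.50 after release. The inhibitor-treated arrays lay more than 2 log2 units below all others, and released arrays lay just under the DMSO arrays. The fall was -2.77 ± 0.075 (limma adjusted p = 1.25e-08), to 14.7% of the DMSO level, and the rise on withdrawal was 2.52 ± 0.075 (limma adjusted p = 2.07e-08). Released cells were at 84.1% of the DMSO level (-0.25 ± 0.067; limma adjusted p = 0.0497). That narrow call ended in 9 settings, among them without DMSO replicate 1 (0.133) or 2 (0.142), either inhibitor-treated array (0.0708) or released replicate 1 (0.149) or 2 (0.147); over 15 alternatives the adjusted p ran from 0.00585 to 0.149.

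All 3 tropomyosin genes rose with the inhibitor. Tpm1, whose gene yields muscle and non-muscle tropomyosins by alternative splicing, read 7.99, 7.99 and 7.92 with DMSO, 9.06 and 8.98 with the inhibitor, and 7.72, 7.76 and 7.67 after release (1423049_a_at). The 3 groups did not overlap, and the released arrays were the lowest. Its rise was 1.05 ± 0.063 (limma adjusted p = 9.9e-07), and withdrawal brought a fall of -1.30 ± 0.063 (limma adjusted p = 2.55e-07). The released level was below that of DMSO, at 84.2% (-0.25 ± 0.056; limma adjusted p = 0.0255). This call ended in 8 settings, among them without DMSO replicate 1 (0.0807) or 2 (0.0734) and without released replicate 1 (0.0711), 2 (0.0542) or 3 (0.0928), and over 15 alternatives the adjusted p ran from 0.00225 to 0.256. With the mean of its probe sets the difference was -0.12 (0.256), and the fall on withdrawal was -0.76. Another probe set, 1423721_at, rose by 1.23 ± 0.10 (limma adjusted p = 7.98e-06) and was not lower than DMSO after release beyond the test (-0.07 ± 0.090; 0.696).

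Tpm2, which encodes β-tropomyosin, read 5.47, 5.56 and 5.67 with DMSO, 6.33 and 6.12 with the inhibitor, and 5.81, 5.85 and 5.92 after release (1419738_a_at). The released arrays lay between the other groups and overlapped with neither. Its rise was 0.66 ± 0.086 (limma adjusted p = 0.000172). On withdrawal it fell by -0.36 ± 0.086 (limma adjusted p = 0.0071), a call that ended without inhibitor-treated replicate 1 (0.0809; 15 alternatives from 0.00355 to 0.0809). Tpm2 was the only one of the 10 genes called higher than DMSO after release (0.30 ± 0.077; limma adjusted p = 0.0433). The call ended in 8 settings, among them without DMSO replicate 1 (0.132) or 2 (0.106) or released replicate 1 (0.0779), 2 (0.105) or 3 (0.132), with adjusted p from 0.0222 to 0.244 over 15 alternatives. With the mean of its probe sets the difference was 0.14 (0.244).

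Tpm4, a tropomyosin gene of non-muscle cells, read 8.69, 8.77 and 8.67 with DMSO, 9.24 and 9.25 with the inhibitor, and 8.72, 8.79 and 8.81 after release. Released and DMSO arrays overlapped, and both lay below the inhibitor-treated arrays. It rose by 0.53 ± 0.063 (limma adjusted p = 9.14e-05) and fell by -0.47 ± 0.063 on withdrawal (limma adjusted p = 0.00021), and released and DMSO arrays differed by 0.06 (limma adjusted p = 0.557; 95% interval -0.06 to 0.19). Tpm3, the remaining tropomyosin gene, is not among the 10 and was chosen here after its values were seen. It went the other way, with 11.57, 11.54 and 11.55 in DMSO, 11.24 and 11.22 with the inhibitor and 11.57, 11.59 and 11.61 after release (-0.33 ± 0.057 with the inhibitor; limma adjusted p = 0.00117), and with the mean of its probe sets the fall was -0.50.

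The calponin family, Tagln, Tagln2 and Cnn2, showed 3 courses. Tagln2, a transgelin of many cell types, read 8.75, 8.93 and 8.84 with DMSO, 9.47 and 9.37 with the inhibitor, and 8.46, 8.59 and 8.63 after release (1426529_a_at). The groups did not overlap, with inhibitor-treated arrays highest and released arrays lowest. It rose by 0.58 ± 0.079 with the inhibitor (limma adjusted p = 0.000224) and fell by -0.86 ± 0.079 on withdrawal (limma adjusted p = 1.55e-05). Below DMSO after release by -0.28 ± 0.071 (limma adjusted p = 0.0407), it lost that call in 11 settings, among them without DMSO replicate 2 (0.122) or 3 (0.0935), either inhibitor-treated array (0.0551), or released replicate 1 (0.132), 2 (0.0877) or 3 (0.0589); over 15 alternatives the adjusted p ran from 0.00131 to 0.132. In the fit over every probe set 1439407_x_at of Tagln2 rose by 0.47 ± 0.097 with the inhibitor (limma adjusted p = 0.00329). The released and DMSO arrays of that probe set overlapped (-0.17 ± 0.087; limma adjusted p = 0.312). With the mean of the Tagln2 probe sets, which includes the low 1420245_x_at (2.23 to 2.66), the fall on withdrawal was -0.47.

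Cnn2, a calponin of non-muscle cells, read 7.51, 7.40 and 7.40 with DMSO, 7.60 and 7.63 with the inhibitor, and 6.78, 6.46 and 6.96 after release. The released arrays were the lowest and the most spread (SD 0.257, n = 3), while the inhibitor-treated arrays lay just above the DMSO arrays. Released cells were at 61.5% of the DMSO level (-0.70 ± 0.11; limma adjusted p = 0.00418), and this call held in all 16 settings tried. Against the inhibitor-treated arrays the fall was -0.88 ± 0.12 (limma adjusted p = 0.000273). With the inhibitor Cnn2 differed from DMSO by 0.18 ± 0.12, which did not pass (limma adjusted p = 0.282; 95% interval -0.10 to 0.46).

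Tagln, whose product SM22α is abundant in smooth muscle, passed in none of the 3 comparisons. It read 4.73, 4.69 and 4.64 with DMSO, 4.61 and 4.59 with the inhibitor, and 4.65, 4.73 and 4.75 after release, so that the inhibitor-treated arrays were lowest by a small margin. The difference with the inhibitor was -0.09 ± 0.064 (limma adjusted p = 0.298; 95% interval -0.23 to 0.05).

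Both crosslinker genes were highest on the inhibitor-treated arrays. Flna, which encodes filamin A, read 7.79, 7.76 and 7.84 with DMSO, 8.46 and 8.37 with the inhibitor, and 8.01, 7.91 and 7.86 after release. The inhibitor-treated arrays were the highest and the released arrays lay just above the DMSO arrays. Flna rose by 0.62 ± 0.069 (limma adjusted p = 5.82e-05) and fell by -0.49 ± 0.069 on withdrawal (limma adjusted p = 0.000282), and released and DMSO arrays differed by 0.13 (limma adjusted p = 0.245; 95% interval -0.01 to 0.27).

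Actn1, which encodes α-actinin-1, read 10.48, 10.56 and 10.60 with DMSO, 10.73 and 10.72 with the inhibitor, and 10.57, 10.57 and 10.61 after release (1428585_at). Released arrays lay within or next to the DMSO range. Its rise of 0.18 ± 0.062 passed narrowly (limma adjusted p = 0.0451). It ended in 12 settings: without DMSO replicate 1 (0.12) or 2 (0.0703), either inhibitor-treated array (0.142 and 0.14) or any released array (0.0609, 0.0622 and 0.0641), and with the mean of its probe sets (0.423), among others. Over 15 alternatives the adjusted p ran from 0.00284 to 0.423. Its other probe sets, 1427385_s_at and 1452415_at, differed by -0.01 ± 0.075 and 0.00 ± 0.073 in the fit over every probe set, where 1428585_at did not pass either (limma adjusted p = 0.0651).

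**Figure D2:**
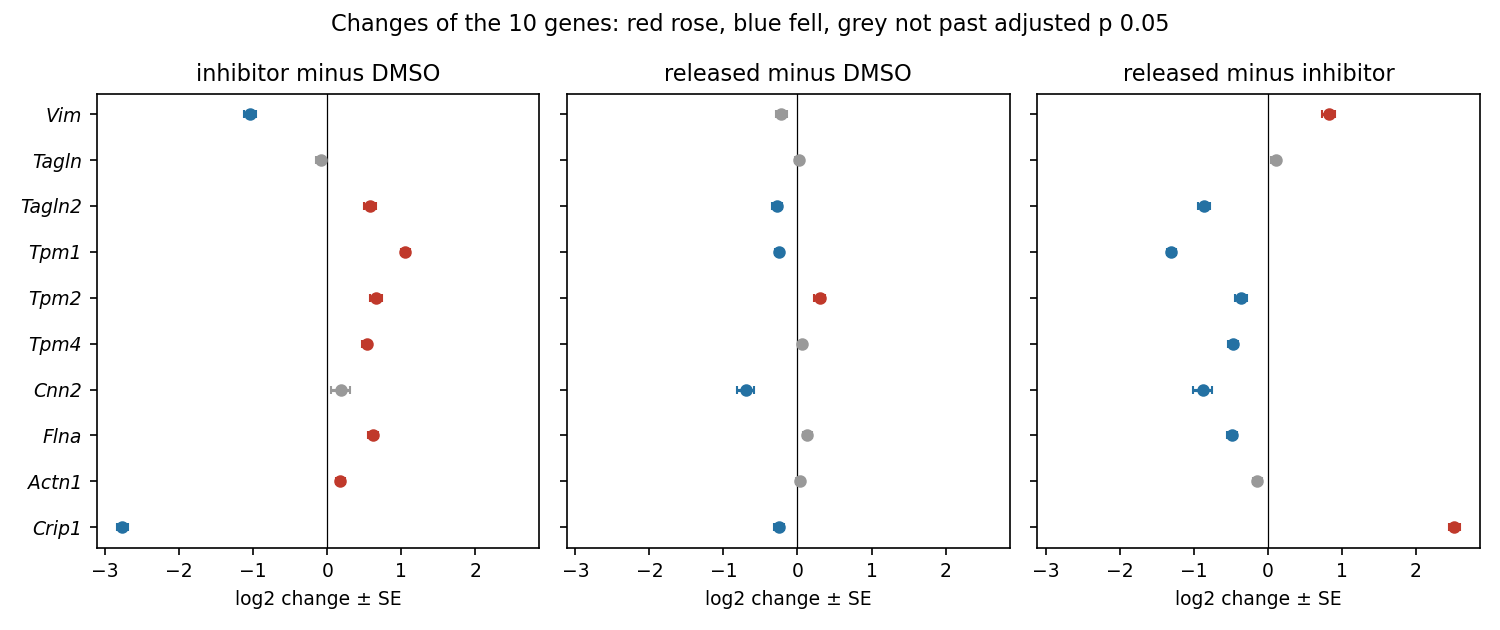
Log2 change (horizontal axes) of the 10 genes in the 3 comparisons, with bars of 1 moderated standard error from the fit to 8 arrays. The left panel spans -2.77 for Crip1 to 1.05 for Tpm1, the middle panel -0.70 for Cnn2 to 0.30 for Tpm2.

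The comparisons share arrays, so their values are set side by side only. Between released and inhibitor-treated arrays 2 of the 10 genes rose (Crip1, Vim) and 6 fell (Tpm1, Tagln2, Cnn2, Flna, Tpm4, Tpm2), where 41.9% of all genes were called, 22.7% upward and 19.2% downward. Between released and DMSO arrays 1 rose (Tpm2) and 4 fell (Cnn2, Tagln2, Tpm1, Crip1), where 8.66% of all genes were called, 4.66% upward and 4.01% downward. Only Cnn2 among these 5 held in every setting, and leaving out 1 array gave between 1 and 4 calls. All 10 genes had inhibitor-treated and DMSO values that did not overlap, as had 60.5% of all genes. Released and DMSO values did not overlap for 7 of the 10 (28.6% of all genes), and released and inhibitor-treated values for all 10 (61.9% of all genes).

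Probe sets of 1 gene did not always change alike. In the fit over every probe set 9 of the 22 rose with the inhibitor and 4 fell, where 37.3% of all probe sets were called, 17.5% upward and 19.9% downward. Among the 9 was 1449577_x_at of Tpm2 (0.40 ± 0.13; limma adjusted p = 0.0401), near the level of the bacterial controls described below. It read 2.32 to 2.69 with DMSO and 2.68 to 3.07 with the inhibitor, so these groups overlapped. On withdrawal it was called lower (-0.52 ± 0.13; limma adjusted p = 0.0111). Released against DMSO arrays gave 0 higher and 4 lower (6.63% of all were called, 3.61% upward and 3.02% downward), and released against inhibitor-treated arrays 4 higher and 11 lower (36.8% of all were called, 19.9% upward and 17% downward). The test of unequal change, on the log2 value of each further probe set minus that of the kept one on the same array, called 4 of the 12 differences for the inhibitor against DMSO, where 24.8% of all such differences were called, 15.3% downward. All 4 were lower than the kept probe set. After withdrawal the same test called 4 of the 12, all higher (22.8% of all, 14.3% upward; 3 without inhibitor-treated replicate 1), and released against DMSO arrays gave 0 (1.96% of all; limma), with 2 at an unadjusted p under 0.05. For the inhibitor against DMSO they were 1420245_x_at of Tagln2 (-0.85 ± 0.092; limma adjusted p = 0.000167), 1447713_at (-1.03 ± 0.13; 0.000379) and 1456623_at (-0.82 ± 0.11; 0.000461) of Tpm1, and 1419739_at of Tpm2 (-0.68 ± 0.11; 0.00137). The first of the 4 read 2.28 to 2.66 and the second 2.59 to 2.83 on the DMSO and inhibitor-treated arrays, within the range of Trpn, a bacterial control on the array, which read 2.15 to 2.95.

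The other differing probe sets lay above that level. The probe set 1456623_at of Tpm1 read 4.25, 3.97 and 3.98 with DMSO and 4.36 and 4.26 with the inhibitor, a difference of 0.24 ± 0.10 that did not pass (limma adjusted p = 0.101). The probe set 1419739_at of Tpm2 read 4.11, 4.13 and 4.27 with DMSO and 4.12 and 4.17 with the inhibitor, so the groups overlapped (-0.02 ± 0.074; limma adjusted p = 0.846). A further Tpm2 probe set, 1425028_a_at, rose by 0.82 ± 0.13 (limma adjusted p = 0.000714), close to the kept one. Averaging all probe sets of a gene lowered the rise of Tpm1 to 0.64 and that of Tagln2 to 0.26, and both still passed. Which transcripts these probe sets read was not tested.

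**Figure D3:**
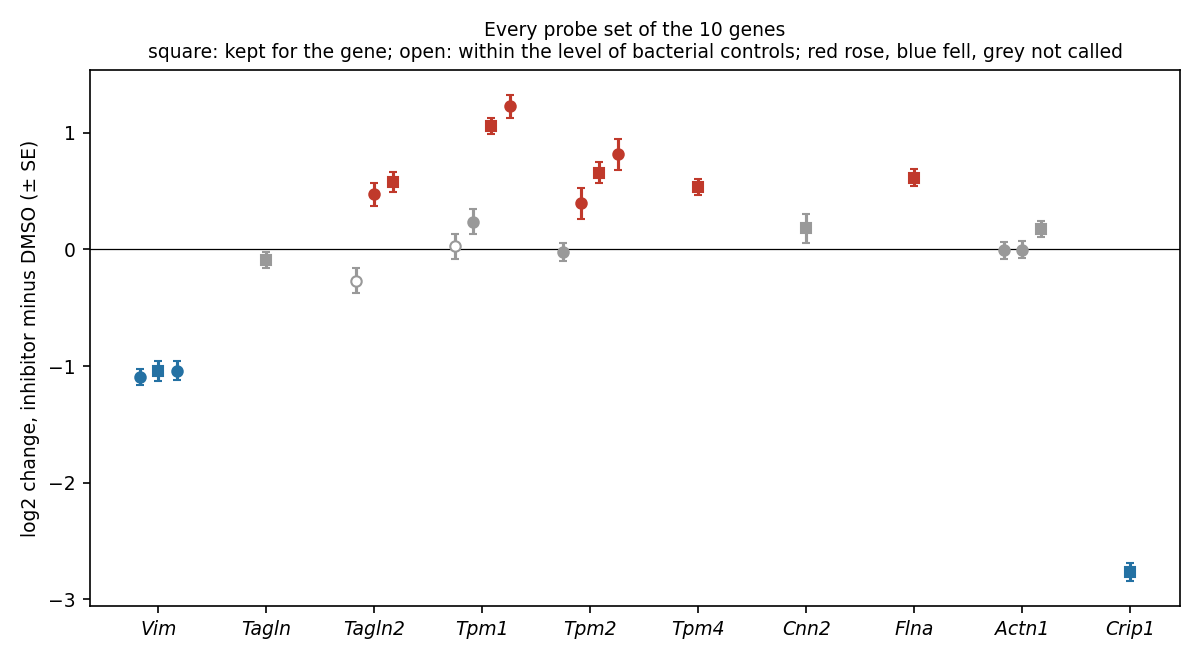
Log2 change between inhibitor-treated and DMSO arrays (vertical axis) of all 22 probe sets, grouped by gene, with bars of 1 moderated standard error. Squares are the probe sets kept per gene, and open circles are those at or below the highest value of the Trpn controls on every array. The 3 probe sets of Vim lie together near -1.04, and those of Tpm1 spread from 0.03 to 1.23.

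The rest of the actin machinery moved in both directions with the inhibitor. Of all genes 19.2% rose and 22.3% fell with the inhibitor, and the list counts here and below stand beside those shares. Among focal adhesion and stress fibre genes 11 of 23 rose and 3 fell, with a median of 0.14. Those with the smallest p there were Pdlim7, a PDZ and LIM protein of stress fibres (2.64 ± 0.12), the integrin gene Itgb1 (0.92 ± 0.064) and Vasp, which promotes filament growth (0.80 ± 0.064), with limma adjusted p = 1.79e-07, 2.78e-06 and 6.39e-06. The means of all probe sets gave 1.21 for Pdlim7 and 0.35 for Itgb1.

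Of 24 actin turnover and bundling genes 7 rose and 8 fell, with a median of -0.01. Gsn, which encodes the severing protein gelsolin, rose from 4.83, 4.84 and 4.85 with DMSO to 7.30 and 7.08 (2.35 ± 0.083; limma adjusted p = 4.61e-08), and the capping protein gene Capg rose by 0.73 ± 0.083 (6.9e-05; 0.46 with the mean of its probe sets). Fscn1, which encodes the bundling protein fascin, fell by -1.18 ± 0.062 (limma adjusted p = 4.75e-07). Of the 6 actin genes 0 were called in limma, and 1 had an unadjusted p under 0.05. Actb differed by 0.08 ± 0.061, Acta2 by -0.14 ± 0.087 and Actg1 by 0.16 ± 0.063 (limma adjusted p = 0.36, 0.247 and 0.0686). Actg1 passed without low-level genes (0.0379) and with a variance trend (0.00134).

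Of 13 measured close relatives of the 10 genes 1 rose and 5 fell, with a median of -0.08. The LIM genes Csrp2 (-0.97 ± 0.077) and Crip2 (-0.74 ± 0.085), relatives of Crip1, fell (limma adjusted p = 6.6e-06 and 6.93e-05), and the muscle filamin gene Flnc rose by 0.76 ± 0.12 (limma adjusted p = 0.000617). Of 12 other intermediate filament and lamin genes 2 rose and 5 fell, with a median of -0.18. The nuclear lamin genes Lmnb1 (-0.92 ± 0.063) and Lmnb2 (-0.96 ± 0.096) fell and the neurofilament gene Nefm rose (1.11 ± 0.086), with limma adjusted p = 2.54e-06, 2.88e-05 and 5.19e-06.

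Among SRF and YAP regulators and targets 6 of 17 rose and 2 fell, with a median of -0.01. The YAP targets Ccn2 (2.50 ± 0.073), Ccn1 (1.85 ± 0.13) and Amotl2 (0.65 ± 0.064) rose (limma adjusted p = 1.78e-08, 2.4e-06 and 2.64e-05). Other genes of the list were not higher in mean with the inhibitor: Ankrd1 (3.19 to 2.98), Axl (4.23 to 3.80) and Thbs1 (3.44 to 3.44). Of these, Ankrd1 and Thbs1 read near the level of the Trpn controls, whose highest value was 2.95. The mean of Wwtr1 was 8.58 with DMSO and 9.02 with the inhibitor, and that of Yap1 9.85 and 9.88. The TEAD genes divided, with lower means for Tead2 (8.42 to 7.66) and Tead3 (5.84 to 5.34). Means were higher for Tead1 (9.52 to 10.07) and Tead4 (5.82 to 6.07). Srf itself differed by -0.20 ± 0.083 and Mrtfa by -0.10 ± 0.12, neither past the threshold (limma adjusted p = 0.0896 and 0.569). Srf passed as lower with each array centred on its median (0.0365), with quantile normalization repeated (0.0236), with a replicate block (0.0394) and without DMSO replicate 3 (0.0413). In the list of the epithelial to mesenchymal switch, in which Vim is a classic mesenchymal marker, 3 of 9 rose and 0 fell, with a median of 0.21. Zeb1 (0.51 ± 0.070), Cdh2 (0.50 ± 0.10) and Fn1 (0.40 ± 0.078) rose (limma adjusted p = 0.000244, 0.00305 and 0.00236), opposite in sign to Vim. With the mean of its probe sets the rise of Zeb1 was 0.23. The epithelial cadherin gene Cdh1 differed by 0.12 ± 0.066 (limma adjusted p = 0.166) and passed with a variance trend (0.0276).

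**Figure D4:**
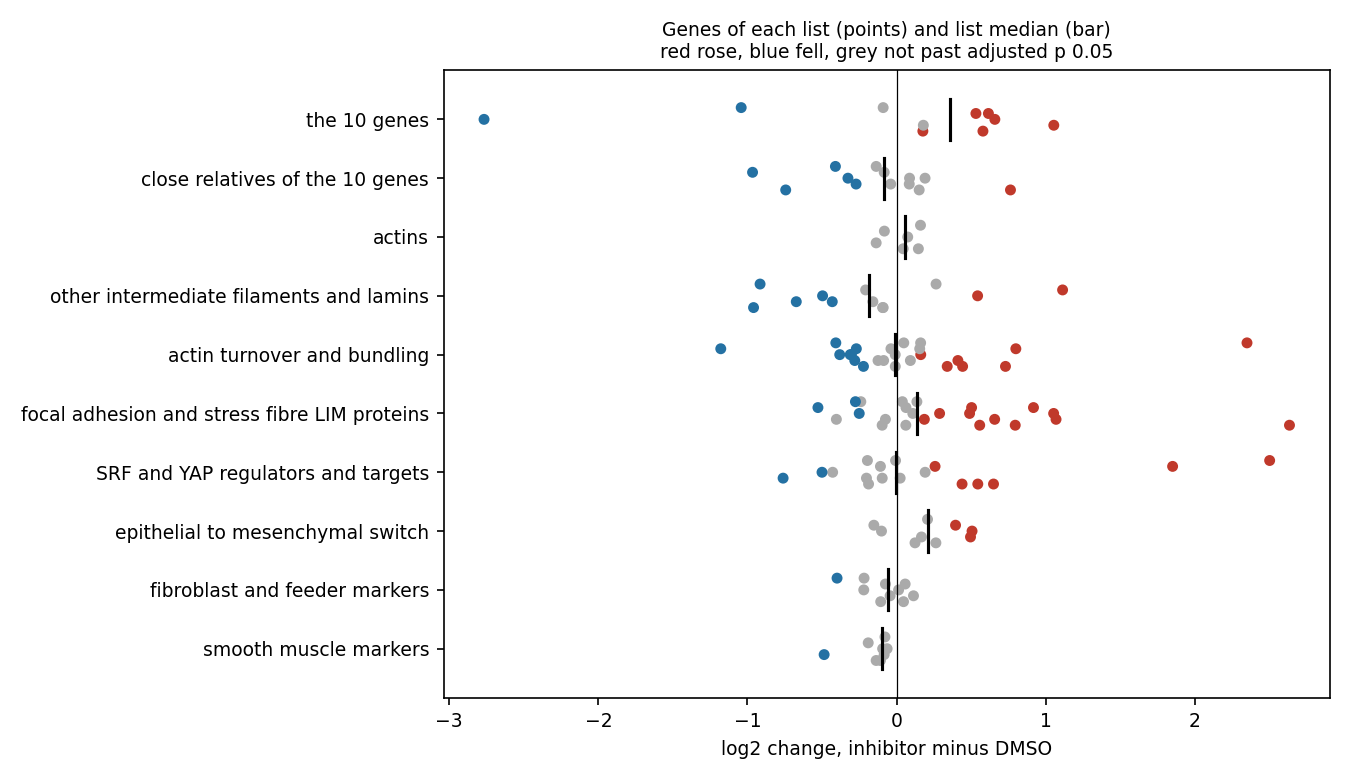
Log2 change between inhibitor-treated and DMSO arrays (horizontal axis) of the genes of each list. Points are genes, black bars are list medians, and the median was 0.36 for the 10 genes, 0.14 for the focal adhesion list and -0.10 for smooth muscle markers.

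After withdrawal the focal adhesion list had 4 genes higher and 10 lower than on the inhibitor-treated arrays, and the SRF and YAP list 2 and 6. Of all genes 22.7% were higher and 19.2% lower. Close relatives had 5 higher and 1 lower, and other intermediate filament and lamin genes 4 and 0. The turnover and bundling list had 7 and 7, but 9 calls in all without inhibitor-treated replicate 1 and 8 without replicate 2. The epithelial to mesenchymal switch list had 0 and 4, of which 2 were left with the mean of all probe sets. Its lower genes included the epithelial genes Cdh1 (-0.37 ± 0.066; limma adjusted p = 0.00116) and Epcam (mean 9.12 with the inhibitor, 8.71 after release). Zeb1 and Fn1 did not pass with the mean of their probe sets (0.352 and 0.467). Without inhibitor-treated replicate 1 they differed by -0.27 and -0.23. None of the 6 actin genes was called in limma, and 0 had an unadjusted p under 0.05. Gsn (-2.03 ± 0.083), Pdlim7 (-2.06 ± 0.12) and Ccn2 (-2.16 ± 0.073) fell (limma adjusted p = 9.31e-08, 6.81e-07 and 3e-08). Compared with DMSO, Nefm (0.93 ± 0.077, limma adjusted p = 0.000116), Pdlim7 (0.58 ± 0.10, 0.00904) and Capg (0.46 ± 0.075, 0.0048) were still higher in released cells. Nefm did not differ past the threshold between released and inhibitor-treated arrays (-0.19 ± 0.086, limma adjusted p = 0.113). Cdh2 (0.38 ± 0.091, limma adjusted p = 0.032), Ccn2 (0.35 ± 0.065, 0.0106), Gsn (0.32 ± 0.074, 0.0259) and Itgb1 (0.26 ± 0.058, 0.0229) were also called higher than DMSO, but these calls ended in some settings. Amotl2 was lower than DMSO (-0.36 ± 0.058, limma adjusted p = 0.00479). So were Csrp2 (-0.30 ± 0.069, limma adjusted p = 0.0261) and Cdh1 (-0.25 ± 0.059, 0.0295), in calls that ended in some settings. The calls of Nefm, Pdlim7, Capg and Amotl2 against DMSO held in all settings tried. With the mean of its probe sets, however, Pdlim7 differed from DMSO by 0.32, and its fall on withdrawal was -0.89.

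Profiles most like those of Vim, Tpm1 and Crip1 over the 8 arrays were found by the smallest root mean square difference of log2 values centred on each gene's mean. For Vim these were Dhps (0.0531), Capn5 (0.0541) and Skp2 (0.0655). For Tpm1 they were Ctsa (0.0516), Plpp3 (0.0581) and Tmem106b (0.0667). For Crip1 they were Pclaf (0.0925), Lefty1 (0.134) and Mymx (0.204). The differences were not scaled to the size of a gene's change, which was largest for Crip1.

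Markers of other cells were read beside these results, since in bulk RNA fewer cells of a type and less RNA per cell cannot be told apart. ESC markers were present, with a mean log2 value of 8 genes between 10.96 and 11.22 on all 8 arrays. Single genes moved within that mean, and with the inhibitor 2 of the 8 rose and 3 fell. Utf1 fell by -1.79 ± 0.061 and Tdgf1 by -0.38 ± 0.0615 (limma adjusted p = 4.04e-08 and 0.000678), and Zfp42 rose by 0.69 ± 0.073 (3.85e-05). Fibroblast and feeder markers summed to 119 to 130 (linear units, 10 genes) with DMSO, 113 to 121 with the inhibitor and 127 to 129 after release, and Col1a1 read 3.58 to 4.00 and Col1a2 3.85 to 4.21 over all arrays. Of these 10 genes 0 rose and 1 fell (Thy1, -0.40 ± 0.093; limma adjusted p = 0.00613), and 2 fell without DMSO replicate 1. Smooth muscle markers summed to 173 to 179 with DMSO, 157 to 158 with the inhibitor and 169 to 182 after release, and of 8 genes 0 rose and 1 fell, 2 without inhibitor-treated replicate 1.

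Some marker lists moved with the inhibitor. Neural markers, in the direction of Vim, summed to 295 to 310 with DMSO, 137 to 146 with the inhibitor and 209 to 231 after release; 4 of 6 fell, 2 without inhibitor-treated replicate 1. The neurofilament gene Nefm, outside the neural list, rose with the inhibitor (1.11 ± 0.086). The mesoderm and endoderm sums below, and the smooth muscle sums above, were also lower with the inhibitor. Trophectoderm markers, in the direction of the tropomyosins, summed to 894 to 983, 3560 to 3620 and 648 to 727, and 5 of 8 rose (Krt8, Krt18, Krt19, Eomes and Gata3). Their defining factor Cdx2 read 4.86, 4.86 and 5.08 with DMSO and 4.51 and 4.96 with the inhibitor. Elf5 read 3.01, 2.75 and 2.89 with DMSO and 2.84 and 3.10 with the inhibitor, next to the Trpn controls. After release the trophectoderm sum was below that of DMSO, but the mean log2 value was above it (5.37 to 5.43, beside 5.19 to 5.25). Tfap2c, the brightest of the list with DMSO, had a mean of 9.25 with DMSO and 8.18 after release. Krt18 was higher than DMSO after release (1.59 ± 0.13, limma adjusted p = 0.000116). Mesoderm markers summed to 169 to 185, 129 to 132 and 146 to 159, with 2 of 5 lower, 1 without either inhibitor-treated array or without DMSO replicate 1 or 2. Endoderm markers summed to 95.4 to 102, 86 to 90.6 and 94.7 to 99.2, with 2 of 7 lower. No list had a marker at 0, as no array value is 0, and the part of these cells in the changes of the 10 genes was not tested.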

How the data were processed

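RNA of 8 ESC samples was hybridised to Affymetrix arrays, 1 per sample (biotin-labelled cRNA, per the labels' protocols). The deposited log2 values, 1 per probe set and array, were made by the authors with RMA (background correction, quantile normalization, summary per probe set); RMA, oligo 1.32.0 and limma 3.2.15 are named per the submitters' processing notes. Their range (1.69 to 13.76) fits a log2 scale, which no label states. RMA makes values relative within an array, so a change shared by most genes is not visible. Arrays have no read depth, and their number limits precision. The median standard error of a log2 change was 0.0828 between inhibitor-treated and DMSO arrays.

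Here, probe sets with 1 symbol were kept, and each gene was read from its brightest probe set by mean log2 value. Another fit took every probe set, and another the differences between further and kept probe sets (16752). All used limma 3.58.1 in R 4.3.3 (lmFit, eBayes; 1 mean per group, 8 arrays, 5 residual degrees of freedom), with two-sided p adjusted by Benjamini-Hochberg over all features and a threshold of 0.05. A suffix _x_at or _s_at marks probes that may match other sequences. No filter on level was applied. The procedure was tested on simulated data. Promoter sequences are RefSeq's.

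The 10 genes and all lists were chosen with earlier results of these data known. Named besides the 10 genes were at most 3 called genes per list with the smallest p for inhibitor against DMSO, always Actb, Actg1, Acta2, Srf, Mrtfa, Cdh1 and Fn1, and the 3 most like genes of Vim and of the genes among the 10 with the largest rise and fall. Tpm3, Eomes, Gata3, Cdx2, Elf5, Tfap2c, Col1a1 and Col1a2 were named outside this rule, after their values were seen. So were Epcam, Ankrd1, Axl, Thbs1, Wwtr1, Yap1, Tead1, Tead2, Tead3 and Tead4. Results of 1 further list are not reported here. Alternatives are given in the closing section; those for the other lists were added after the data were seen.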

Additional observations from a re-analysis of the deposited data

How the results depend on the processing

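The 16 alternatives left out each of the 8 arrays in turn, averaged a gene's probe sets, dropped genes under the 30th percentile of level, centred arrays on their medians, quantile-normalized again, fitted a robust variance trend, took only the arrays compared, added a replicate block, or asked for an adjusted p under 0.01; an arm left with 1 array takes its spread from the others. No called value of the 10 genes changed sign. For inhibitor against DMSO 148 of 160 values kept their call and the other 12 are those of Actn1; for released against inhibitor-treated 158 of 160 did. Leaving out 1 array gave 7 to 8 called genes for inhibitor against DMSO and 7 to 8 for released against inhibitor-treated, 12 to 15 and 11 to 15 called probe sets, and 4 to 4 and 3 to 4 unequal probe set pairs.

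Released against DMSO was the least stable, with 121 of 160 values keeping their call. Its count of called genes, 5, became 3 with the mean of all probe sets (Cnn2, Crip1 and Vim, which was not among the 5), 3 with only the arrays compared, 1 with the replicate block, 1 at an adjusted p under 0.01, and 1 to 4 without 1 array. Its 4 called probe sets became 8 with a variance trend and robust fitting, 2 at an adjusted p under 0.01 and 2 to 4 without 1 array; 0 unequal pairs were called in limma, 2 at an unadjusted p under 0.05. The cause was not tested. Replicate numbers did not pair the samples: deviations from group means of same-numbered arrays correlated between -0.056 and 0.014 over all genes. Centring the arrays shifted inhibitor against DMSO by 0.048 (log2).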
